A study of Mus musculus with 56 samples.

Results

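The values of 10 matrix genes, out of 25131 genes tested, were followed around the clock in the livers of 56 mice. The genes were taken by name: Col4a2, Timp3 and Ccbe1, whose daily rhythms keep their phase when feeding time is inverted, and around them Col4a1, Nid1, Lamb1, Lamc1, Hspg2, Sparc and Serpinh1. All mice were female C57BL/6J, 9 weeks old, held in 12 h of light and 12 h of darkness. They had been fed for 7 days either in the day only (daytime-restricted feeding, DRF) or in the night only (nighttime-restricted feeding, NRF, the reference regimen). Livers were collected at ZT (zeitgeber time, counted in hours from lights on) 0, 4, 8, 12, 16, 20 and 24, with 4 mice per regimen and time, which gave 14 groups. No allele was altered and no agent was given in either regimen.

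A basement membrane is a thin sheet of matrix on which cells of vessels and epithelia rest. Laminin trimers form its first layer, triple-helical collagen IV forms another network, and nidogen and the proteoglycan perlecan join them. In the liver the sinusoids have no continuous basement membrane, but its proteins are laid down loosely in the space between endothelium and hepatocytes and surround the larger vessels and bile ducts. Stellate and endothelial cells are known as main sources of these proteins. In whole liver RNA, fewer cells of a type and less RNA per cell cannot be told apart.

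Levels are given in scaled counts, which were recovered from the deposited values and put on a common scale per library, near CPM. The totals per library lay between 888230 and 1115400 scaled counts. Correlations between libraries of a group, across genes, lay between 0.965 and 0.990. All 10 genes had a row in every library, and all of their recovered values came out whole within 0.05 of a count. Wholeness was also used to accept a gene, and the length of Ccbe1 was chosen to give it. They are long genes: 8 of the 10 were longer than the median exon length of 3946.5 bases among the 13754 genes with a mean of at least 1 scaled count. In each library, deviations of these 13754 genes from their means were correlated with exon length (Spearman). At ZT4 this correlation lay between -0.250 and -0.149 under DRF and between -0.226 and 0.169 under NRF. At ZT0 it lay between -0.196 and -0.063 and between -0.320 and 0.032. At ZT16 it lay between -0.0045 and 0.160 and between 0.044 and 0.217. At ZT24, the same time of day as ZT0, it lay between 0.112 and 0.249 and between 0.055 and 0.262. The correlation thus differed between libraries of 1 time of day, and also between ZT4 and ZT16 under DRF. A correction for exon length was among the alternatives.

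The collagen IV genes Col4a1 and Col4a2 encode the α1 and α2 chains of the main collagen IV trimer and lie head to head. In GENCODE vM21 (GRCm38), Col4a1 (ENSMUSG00000031502) covers chr8:11198423-11312826 on the minus strand and Col4a2 (ENSMUSG00000031503) covers chr8:11312805-11449287 on the plus strand, so that their first exons share 22 bases. These bases, chr8:11312805-11312826 of GRCm38.p6, are shown because both chains start there, with the GC box GGGCGG or its reverse complement CCGCCC in capitals:

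Col4a2 strand: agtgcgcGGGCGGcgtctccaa

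Col4a1 strand: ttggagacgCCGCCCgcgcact

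Serpinh1 (ENSMUSG00000070436, chr7:99345376-99353239, minus strand) encodes the collagen chaperone HSP47, which binds the folded collagen triple helix in the endoplasmic reticulum and is induced by heat shock. The 250 bases before its start site (chr7:99353240-99353489, minus strand, GRCm38.p6, from RefSeq) are shown because its fitted peaks lay farthest apart among the 10 genes, with the GC box GGGCGG in capitals:

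Serpinh1 promoter: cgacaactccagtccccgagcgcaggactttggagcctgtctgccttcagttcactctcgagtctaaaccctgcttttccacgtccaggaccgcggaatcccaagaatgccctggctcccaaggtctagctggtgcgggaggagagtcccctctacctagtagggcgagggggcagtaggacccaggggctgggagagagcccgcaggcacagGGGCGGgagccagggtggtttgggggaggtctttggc

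Promoter windows from 250 bases before to 50 after the RefSeq start were found for 8 of the 10 genes and for 27025 gene symbols in all. Motifs were searched on both strands. GGGCGG occurred in 7 of the 8 windows (all but that of Sparc), in 14 of 15 windows of heat shock genes and in 35.9% of all windows. CCAAT occurred in the windows of Col4a1, Col4a2, Nid1 and Lamb1, 4 of 8, in 8 of 15 windows of heat shock genes and in 37.9% of all. The windows of Col4a1 and Col4a2 overlap. Their GC content was 74.0% and 73.7%, against a median of 52.7% over all windows. The GC content of the members' other windows ran from 55.3% (Sparc) to 70.3% (Hspg2). GAANNTTC and TTCNNGAA, the pairings of the heat shock element's repeat, were in 0 of 8 windows, against 7.95% and 8.4% of all. In 15 windows of heat shock genes, GAANNTTC was found in 9 and TTCNNGAA in 3. The E-box CACGTG and the TATA box TATAAA were also in 0 of 8, against 7.24% and 14.2% of all windows.

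Nid1 (nidogen 1, ENSMUSG00000005397, chr13:13437551-13512269, plus strand) links the laminin and collagen IV networks. Lamb1 (ENSMUSG00000002900, chr12:31265234-31329644, plus strand) and Lamc1 (ENSMUSG00000026478, chr1:153218922-153332786, minus strand) encode the β1 and γ1 chains of laminin. Hspg2 (perlecan, ENSMUSG00000028763, chr4:137468769-137570630, plus strand) is the large heparan sulfate proteoglycan of the membrane. Sparc (ENSMUSG00000018593, chr11:55394500-55423183, minus strand) encodes a secreted glycoprotein that binds collagen. Timp3 (ENSMUSG00000020044, chr10:86300372-86349506, plus strand) encodes an inhibitor of metalloproteinases that stays bound to the matrix. Of its exon bases, 21.3% are shared with exons of Syn3 on the opposite strand. Ccbe1 (ENSMUSG00000046318) encodes a secreted cofactor for the cleavage of VEGF-C by ADAMTS3, a step in the growth of lymphatic vessels.

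Per kilobase of exon, Sparc had the highest mean level with 26.8 scaled counts per kb, followed by Col4a2 and Col4a1 with 21.1 each. Nid1 (10.3), Lamc1 (9.14) and Hspg2 (6.48) came next, then Serpinh1 (3.57), Timp3 (2.52), Lamb1 (1.63) and Ccbe1 (1.33). The γ1 chain of laminin was thus measured at a higher level per kb than the β1 chain. The ratio of Col4a1 to Col4a2 per kb was 1.01 ± 0.116 (SD, n = 56 livers), between 0.820 and 1.29. It was 0.991 ± 0.108 under DRF and 1.02 ± 0.122 under NRF (SD, n = 28 each). The means of the 14 groups ran from 0.879 to 1.16, so this spread holds differences between groups as well as between livers.

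Peak times were fitted with a 24-h cosine in each regimen, and a rhythm was called at an adjusted p under 0.05 in limma over all genes. Because the genes were chosen by their rhythms in these livers, peaks, amplitudes and calls are a description of them. Under DRF, 5 of 10 were called rhythmic (Col4a1, Col4a2, Lamb1, Timp3 and Ccbe1), beside 35.2% of all genes. Under NRF, 8 of 10 were called, all but Nid1 and Lamc1, beside 43.9%. With the values as deposited, 5 were called under NRF, beside 41.8% of all genes. Of the 5 genes called in both regimens, beside 23.4% of all genes, 4 had peaks within 4 h of each other: Col4a1, Col4a2, Timp3 and Ccbe1. Among all 5889 genes called in both, 24.4% had peaks within 4 h and 50.8% had peaks 8 h or more apart. These calls in both regimens came from the main limma fit. Median-of-ratios scaling gave 7 calls in each regimen, beside 8907 (DRF) and 10957 (NRF) of all 25131 genes. A rank test alone called 5 under DRF and 6 under NRF, beside 7728 and 7957 genes. Combined with the cosine fit it called 7 and 9, beside 10626 and 11966 genes. This combination added Nid1 and Hspg2 under DRF and Nid1 under NRF.

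The label of a kept phase therefore applied to 4 genes. The fitted peaks of the other 6 lay more than 4 h apart, but of these only Lamb1 had a called rhythm in both regimens in the main fit. The hours between the fitted DRF and NRF peaks were 0.817 ± 0.741 for Col4a1, 0.198 ± 0.638 for Col4a2, 0.790 ± 0.447 for Timp3 and 0.187 ± 0.681 for Ccbe1 (SE). Under every alternative in values, scaling, libraries and times these 4 differences stayed at or below 1.44 h. The nearest differences outside 4 h were those of Lamc1, with 5.04 ± 2.54 h, and Lamb1, with 6.85 ± 1.12 h. Sparc (7.73 ± 2.53 h), Hspg2 (8.23 ± 1.87 h), Nid1 (10.3 ± 1.93 h) and Serpinh1 (11.8 ± 1.8 h) lay farther apart. For Lamc1 and Nid1, which had no called rhythm in either regimen in the main fit, the difference ranged from 0.0369 to 7.51 h and from 3.20 to 11.9 h over the alternatives. For Serpinh1 it ranged from 10.1 to 11.8 h.

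**Figure D1:**
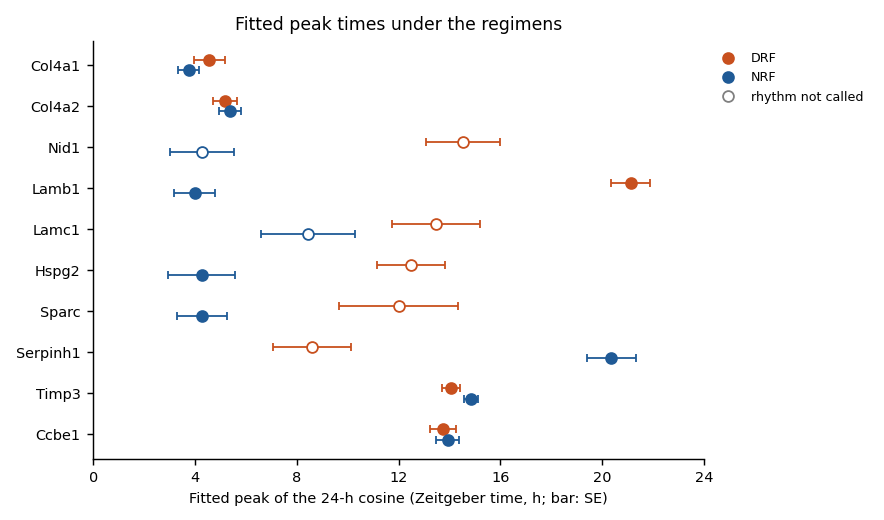
Fitted peak of the 24-h cosine (x axis, zeitgeber time in hours; bars, SE) for each of the 10 genes under DRF (orange) and NRF (blue), with open circles where the rhythm was not called. The points of Col4a1, Col4a2, Timp3 and Ccbe1 lie within 1 h of each other, whereas those of Serpinh1 lie at 8.59 h and 20.4 h.

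The difference in rhythm between regimens, which counts amplitude as well as phase, was called for 7 of 10 genes, beside 39.0% of all genes. Col4a2, Lamc1 and Ccbe1 were the 3 not called. Col4a1 and Timp3 were called although their peaks lay within 1 h. The relative amplitude (amplitude over daily mean) of Col4a1 was 0.172 under DRF and 0.320 under NRF, and that of Timp3 was 0.280 and 0.430. With the values as deposited 4 genes were called, beside 34.2% of all genes, and without the animals numbered 4 in each group 3 were called, beside 33.2%.

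Col4a1 and Col4a2 were high in the early light phase and low in the dark in both regimens. Col4a1 peaked at 4.56 ± 0.615 h (DRF) and 3.74 ± 0.414 h (NRF) (SE). At ZT4 under NRF its 4 livers held 170, 218, 213 and 234 scaled counts, and at ZT16 they held 89.6, 114, 104 and 112. The lowest liver at ZT4 was thus above the highest at ZT16, and the means differed 1.99-fold. Under DRF the means differed 1.54-fold, with 195, 183, 179 and 217 at ZT4 and 130, 132, 117 and 124 at ZT16, again without overlap. Between their highest and lowest times, groups did not overlap for 59.5% of all genes under DRF and 52.7% under NRF.

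Col4a2, the partner chain, peaked at 5.16 ± 0.468 h (DRF) and 5.36 ± 0.433 h (NRF). Its livers held 176, 164, 166 and 196 scaled counts at ZT4 under DRF and 152, 186, 200.4 and 193 under NRF. At ZT16 they held 97.2, 116, 111 and 118 under DRF and 72.4, 99.0, 113 and 100.3 under NRF. The groups of highest and lowest mean were the same for the regimens, and the range was 1.59-fold under DRF and 1.90-fold under NRF. The DRF and NRF groups of Col4a2 overlapped at all 7 times. Those of Col4a1 stood apart at ZT0, where the mean was 149 ± 8.15 under DRF and 206 ± 22.7 under NRF (SD, n = 4), and at ZT16, where it was 126 ± 6.88 and 105 ± 11. At those times groups did not overlap for 19.6% and 16% of all genes.

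**Figure D2:**
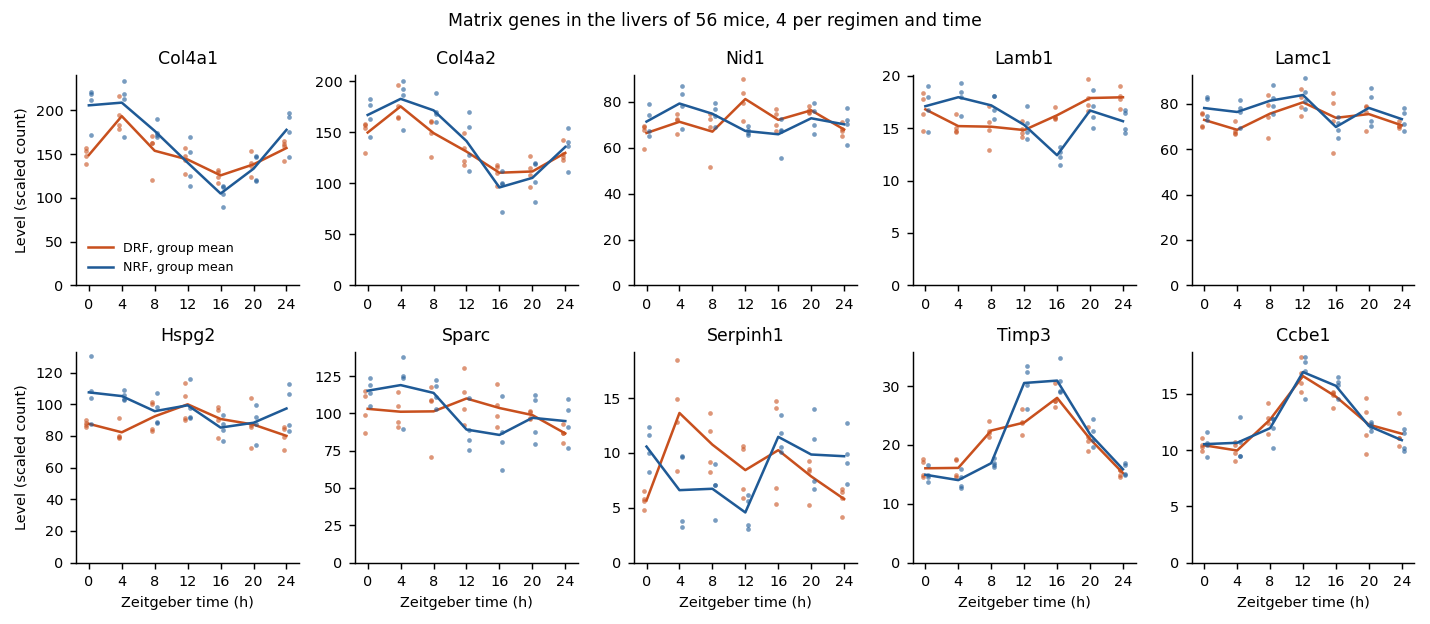
Level in scaled counts (y axis, from 0) against zeitgeber time (x axis, hours) for the 10 genes, with 1 point per liver (4 per group) and lines through the group means of DRF (orange) and NRF (blue). Col4a1 and Col4a2 are highest at ZT4 and lowest at ZT16 in both regimens, Timp3 and Ccbe1 are highest at ZT12 or ZT16, and the lines of Serpinh1 cross.

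Timp3 and Ccbe1 were high around the onset of darkness in both regimens. Timp3 peaked at 14.1 ± 0.350 h (DRF) and 14.8 ± 0.278 h (NRF) (SE). Its livers held 30.5, 27.5, 27.5 and 26.5 scaled counts at ZT16 under DRF, and 14.5, 14.9, 15.8 and 15.7 at ZT24. Under NRF they held 29.0, 34.8, 29.2 and 30.8 at ZT16, and 14.6, 15.9, 12.7 and 13 at ZT4. The high and low groups stood clear of each other, by 1.84-fold under DRF and 2.21-fold under NRF in their means.

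Timp3 stood apart between the regimens at 2 of 7 times. At ZT8 its mean was 22.5 ± 1.21 under DRF and 16.9 ± 0.660 under NRF (SD, n = 4), with no overlap, a log2 difference of 0.39. At ZT12 the order was the other way, with 23.8 ± 1.8 and 30.5 ± 3.28. The highest DRF liver there, at 26.05, lay just below the lowest NRF liver, at 26.07. At the remaining times the groups overlapped. Groups did not overlap for 18.1% of all genes at ZT8 and 16.2% at ZT12.

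Ccbe1 peaked at 13.7 ± 0.512 h (DRF) and 13.9 ± 0.449 h (NRF). Its highest group was ZT12, with 15.2, 18.2, 16 and 16.9 scaled counts under DRF and 14.5, 17.0, 17.9 and 18.3 under NRF. The lowest groups were ZT4 under DRF, with 10.4, 10.7, 9.01 and 9.72, and ZT0 under NRF, with 10.6, 9.41, 10.5 and 11.6. The relative amplitudes were 0.221 and 0.241, and the largest log2 difference between regimens at any time was 0.085. Its DRF and NRF groups overlapped at all 7 times. The length used for Ccbe1, 9511 bases, was found from its values and not from the annotation.

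The laminin, nidogen and perlecan genes had shallow curves, with relative amplitudes between 0.045 and 0.127. Lamb1 had a called rhythm in both regimens, with a peak at 21.1 ± 0.768 h under DRF and at 3.98 ± 0.810 h under NRF (SE). At ZT16 its livers held 16, 15.9, 17.1 and 16 scaled counts under DRF and between 11.5 and 13.2 under NRF, without overlap, as for 16% of all genes. At ZT24 the DRF group (16.9 to 19.1) was again above the NRF group (14.6 to 16.7), where 16.9% of all genes had no overlap. At ZT4 the order was the other way, with 15.2 ± 0.776 under DRF and 18 ± 1.29 under NRF (SD, n = 4), with overlap. Its laminin partner Lamc1 had no called rhythm in either regimen, group means between 68.6 and 83.9, and DRF and NRF groups that overlapped at every time.

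Nid1 stood apart at ZT12, with 79.4, 90.1, 71.8 and 83.9 scaled counts under DRF against 65.7, 69.6, 66.7 and 67.6 under NRF. Hspg2 stood apart at ZT4, where the livers held 79.8, 79.3, 91.4 and 78.5 under DRF and 109, 106, 103 and 102 under NRF. At those times 16.2% and 22.5% of all genes had groups without overlap. Sparc peaked at 4.27 ± 0.979 h under NRF, close to the fitted peak of Col4a1, with a relative amplitude of 0.159. Under DRF its relative amplitude was 0.060 and its rhythm was not called. In all, 10 of the 70 comparisons of a gene at a time had groups without overlap, beside 18.1% of such comparisons over all genes, so the 10 genes were not above the background.

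Serpinh1 was the gene whose peaks lay farthest apart. Its fitted DRF peak was 8.59 ± 1.52 h, with a rhythm that was not called, and its NRF peak was 20.4 ± 0.953 h (SE). At ZT4 its livers held 14.9, 12.8, 8.36 and 18.5 scaled counts under DRF and 9.63, 3.78, 9.77 and 3.25 under NRF. These groups overlapped, with a log2 difference of 1.03 between their means. At ZT0 the order was reversed without overlap, with 6.51, 5.80, 5.60 and 4.77 under DRF and 12.4, 9.98, 11.7 and 8.28 under NRF. ZT24, the same time of day, gave 5.93, 6.43, 4.12 and 6.68 under DRF and 12.7, 9.05, 9.90 and 7.14 under NRF, again with every DRF liver below every NRF liver. At those times groups did not overlap for 19.6% and 16.9% of all genes. Under NRF its highest mean was 11.5 ± 1.51 at ZT16 and its lowest 4.57 ± 1.55 at ZT12 (SD, n = 4), a 2.51-fold range. Livers of a group were spread more widely for Serpinh1 than for the other 9 genes, with an SD of 0.36 on the log2 scale around the group means against 0.092 to 0.18. At ZT16 under DRF they ranged from 5.37 to 14.8.

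Heat shock genes, which encode chaperones induced by heat and by unfolded protein, were set beside Serpinh1. The 18 measured chaperone and cochaperone genes summed to 2292 ± 302 scaled counts at ZT4 under DRF and 918 ± 122 at ZT4 under NRF. At ZT16 the order was the other way, with 1413 ± 109 and 2300.1 ± 215 (SD, n = 4). Serpinh1 and this sum thus both had their highest DRF mean at ZT4 and their highest NRF mean at ZT16. At other points they were unlike. At ZT0, where Serpinh1 stood apart, the sum was 1092 ± 149 under DRF and 1242 ± 189 under NRF, with overlap. At ZT16 it was Serpinh1 that overlapped, with means of 10.3 ± 4.85 and 11.5 ± 1.51 (SD, n = 4). For Hsp90aa1, the inducible cytosolic HSP90, the DRF peak was 7.35 ± 0.680 h and the NRF peak 18.8 ± 0.621 h, and Dnaja1, a cochaperone of HSP70, peaked at 4.83 ± 0.872 h and 17.0 ± 0.491 h (SE). Of 21 heat shock and temperature genes, 9 were called rhythmic under DRF and 19 under NRF, beside 35.2% and 43.9% of all genes. Of the 9 called in both, 7 had peaks 8 h or more apart and 0 within 4 h. Among all genes called in both, these shares were 50.8% and 24.4%. Cirbp, a cold-inducible RNA-binding protein, had peaks at 0.707 ± 1.46 h and 7.03 ± 0.386 h. Only Hspd1, the mitochondrial HSP60, was called in daily mean among the 21, higher under DRF by 0.14 ± 0.041 (adjusted p = 0.0181 by limma), and that call was lost with deposited values, after length correction and without the animals numbered 1 or 4 (adjusted p up to 0.166). From liver to liver within the groups, the correlation of Serpinh1 with the summed heat shock genes did not pass its test (Pearson r = 0.141, Spearman rho = 0.102, permutation p = 0.365 and 0.518, adjusted 0.501 and 0.633, n = 56). The summed portal fibroblast and mural markers peaked at 8.87 h (DRF) and 20.1 h (NRF), close to the fitted peaks of Serpinh1, and ranged from 99 to 253 and from 116 to 191 scaled counts in their group means. Gas6 made up most of that sum, with a mean of 136 scaled counts, and itself peaked at 8.77 h and 19.9 h. The other markers of this list called rhythmic in both regimens peaked at other times. Entpd2 peaked at 23.8 h (DRF) and 8.72 h (NRF), and Acta2 at 14.2 h and 0.862 h. The part of these markers in the curve of Serpinh1 was not tested.

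**Figure D3:**
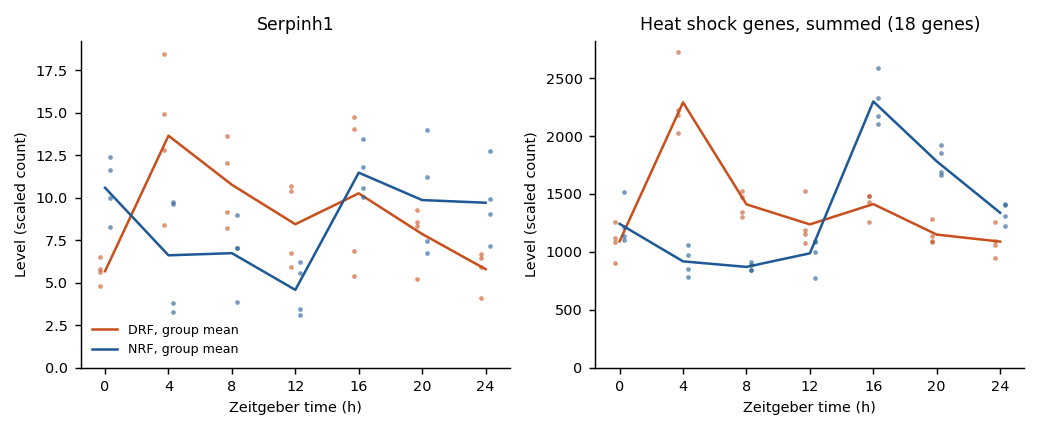
Level in scaled counts (y axes, from 0) against zeitgeber time (x axes, hours) for Serpinh1 and for the sum of 18 heat shock genes, with 1 point per liver and lines through the group means of DRF (orange) and NRF (blue). Both panels have their highest DRF mean at ZT4 and their highest NRF mean at ZT16; the points of Serpinh1 are more spread.

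Daily mean levels, which the choice of genes did not use, were compared between regimens with limma over all 56 livers. Of the 10 genes, 0 passed an adjusted p of 0.05, beside 6.89% of all 25131 genes (4.17% higher and 2.71% lower under DRF). Beside 4989 of all 25131 genes, 1 of the 10 had an unadjusted p under 0.05. That gene was Hspg2, lower under DRF by a log2 difference of -0.10 ± 0.042 (SE), from 96.3 to 89.6 scaled counts, with an adjusted p of 0.140 by limma. The largest difference was that of Serpinh1, 0.14 ± 0.125, with 9.13 scaled counts under DRF and 8.27 under NRF (adjusted p = 0.576 by limma). The other 8 differences lay between -0.059 and 0.025, and the median of the 10 was -0.0046 beside -0.0018 over all genes. The adjusted p was over 0.05 for all 10 genes under each alternative.

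A component with a period of 12 h was also outside the choice of genes. Under DRF, 0 of 10 genes passed the adjusted threshold, beside 4.76% of all genes. Beside 4350 of all 25131 genes, 3 of the 10 had an unadjusted p under 0.05 by limma. Serpinh1 came nearest, with a 12-h amplitude of 2.90 scaled counts, 0.308 of its mean, and maxima at 4.94 h and 12 h later (adjusted p = 0.0944 by limma). Its DRF means were 13.7 at ZT4, 8.44 at ZT12 and 10.3 at ZT16. Timp3 (adjusted p = 0.157 by limma) and Ccbe1 (adjusted p = 0.278) were the others with a low unadjusted p. Under NRF, 0 of 10 genes passed, beside 2.04% of all genes. Lamb1 and Timp3 had unadjusted p-values under 0.05 (adjusted p = 0.220 and 0.224 by limma), beside 3528 of all 25131 genes with such a p.

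The livers taken at ZT0 and at ZT24 came from the same time of day. By limma, 0 of 10 genes differed between them under DRF, beside 3.13% of all genes (1.67% lower at ZT24), and 0 of 10 under NRF, beside 7.96% (2.35% higher and 5.61% lower at ZT24). Unadjusted p-values under 0.05 were found for 0 genes and for 1 gene, Col4a2, which was 167 ± 16.7 scaled counts at ZT0 and 136 ± 18.2 at ZT24 under NRF (SD, n = 4). Over all 25131 genes, 4409 under DRF and 5036 under NRF had an unadjusted p under 0.05 by limma. Under NRF 8 of the 10 differences were negative. On the scale of the deposited values, 0 of 10 were negative and 4 were called higher at ZT24 (Lamc1, Timp3, Nid1 and Ccbe1), so the direction of this comparison changed with the scale. On that scale 20% of all genes were called higher and their median difference was 0.10, beside 0.068 for the 10 genes, so the shift was not one of these genes alone. After a correction for exon length, Hspg2 was called lower at ZT24 in both regimens and Col4a2 under NRF, beside 2.93% (DRF) and 4.84% (NRF) of all genes.

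The genes were chosen with earlier results of these data known, but not by the variation from liver to liver within the 14 groups. This variation was measured as the deviation of each liver from its group mean in log2(scaled count + 1). The tests permuted livers within groups, over 11 relations, with Benjamini-Hochberg adjustment over them. Col4a1 and Col4a2 deviated together, with Pearson r = 0.776 and Spearman rho = 0.734 over 56 livers (adjusted permutation p = 5.5e-05 and 0.00011). The unadjusted p of 1e-05 was the smallest that the permutations can give. Among 13753 genes, Col4a2 was the gene nearest to Col4a1. The correlation was 0.596 within DRF and 0.863 within NRF, and 0.752 without the 2 livers farthest from the median of Col4a1.

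Sparc (r = 0.745, rho = 0.663) and Nid1 (r = 0.671, rho = 0.559) ranked 3 and 6 among the genes nearest to Col4a1 (adjusted permutation p = 5.5e-05 and 0.00015 for r, 0.00011 and 0.00044 for rho). Lamb1 (r = 0.574, rho = 0.421, adjusted permutation p = 0.00074 and 0.0163) and Lamc1 (r = 0.460, rho = 0.428, 0.0036 and 0.0163) followed at ranks 77 and 459. Without the 2 farthest livers the 4 values of r were 0.679, 0.580, 0.493 and 0.367. In livers where Col4a1 was above its group mean, Col4a2, Sparc, Nid1 and the laminin chains thus tended to be above theirs. These 5 relations kept an unadjusted permutation p of at most 0.0378 under each alternative. Hspg2 (r = 0.195), Timp3 (0.069), Serpinh1 (0.041) and Ccbe1 (-0.085) did not pass, with adjusted permutation p-values between 0.370 and 0.801. Deposited values gave r = 0.488 for Hspg2 and r = 0.415 for Timp3 (unadjusted permutation p = 0.0015 and 0.0053). Timp3 and Ccbe1 deviated together with r = 0.40 and rho = 0.364 (adjusted permutation p = 0.0135 and 0.0264), and with r = 0.298 without the 2 farthest livers. Without the animals numbered 1 the permutation p was 0.0609. Ccbe1 ranked 937 among 13753 genes by r with Timp3, and the gene nearest to Timp3 was Pm20d1 (r = 0.743).

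Other measures moved with these deviations. Col4a1 followed the summed markers of hepatocytes (r = 0.490), cholangiocytes (0.478), portal fibroblasts and mural cells (0.471), sinusoidal endothelium (0.426), stellate cells (0.313), other vessels (0.30) and Kupffer cells and leukocytes (0.224), over 56 livers in each. Among these sums, Timp3 followed that of other vessels most closely (r = 0.551). Ribosomal protein genes such as Rpl31 (r = 0.749) and Rps15 (r = 0.653) were also among the genes nearest to Col4a1. After the part that followed the sum of 83 ribosomal protein genes was removed, Col4a1 and Col4a2 had r = 0.635, with a permutation p of 0.0001, the smallest that its draws can give. The values for Sparc, Nid1, Lamb1 and Lamc1 were then 0.575, 0.572, 0.412 and 0.407. Among the genes nearest to Nid1 were Sparc (r = 0.80), Igfbp3 (0.730) and Ngfr (0.715), of which Ngfr is a stellate cell marker. The part of the cell type markers in the shared variation was not tested.

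**Figure D4:**
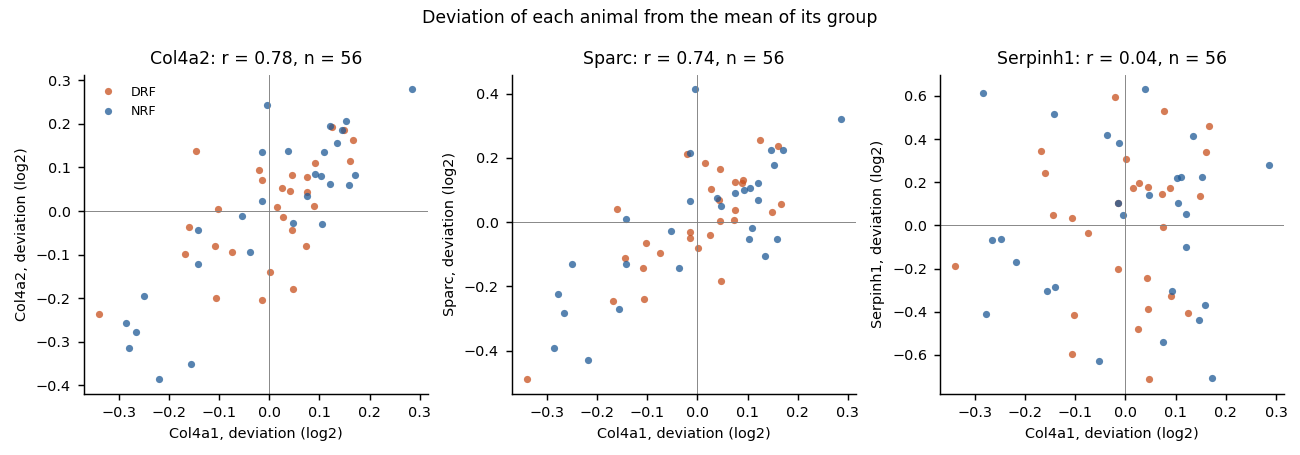
Deviation of each of 56 livers from its group mean in log2(scaled count + 1) for Col4a1 (x axes) against Col4a2, Sparc and Serpinh1 (y axes), with DRF in orange and NRF in blue. Points rise along the diagonal for Col4a2 (r = 0.776) and Sparc (r = 0.745) and scatter without direction for Serpinh1 (r = 0.041).

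Marker genes of liver cell types were measured to place the members. Of the markers with a row, 0 had a median under 0.05 scaled counts. The 11 hepatocyte markers summed to group means between 131000 and 162550. The 16 stellate markers summed to group means of 829 to 1027 scaled counts under DRF and 922 to 1051 under NRF, with fitted peaks at 18.2 h and 12.1 h. The 18 sinusoidal endothelial markers summed to 1422 to 1794 and 1560 to 1699, with peaks at 17.9 h and 8.82 h. The 10 markers of other vessels summed to 110.3 to 136 and 102 to 121, and the 14 of Kupffer cells and leukocytes to 694 to 892 and 724 to 1030. The 8 cholangiocyte markers, whose cells rest on a basement membrane, ranged from 37.2 to 47.7 and from 34.9 to 44.5. The relative amplitudes of the stellate and sinusoidal sums lay between 0.034 and 0.105, and those of the portal fibroblast and mural sum were 0.425 under DRF and 0.207 under NRF. Single stellate markers reached 0.588 (Ngfr, NRF) and 0.485 (Nes, DRF). For Col4a1, Col4a2, Timp3 and Ccbe1 relative amplitudes lay between 0.172 and 0.430. Whether cell numbers had a part in the members' curves was not tested.

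The other 28 basement membrane genes were called in daily mean 5 times, beside 6.89% of all genes. By limma, 3 were higher under DRF: Npnt, which encodes the integrin α8 ligand nephronectin, by a log2 difference of 0.45 ± 0.070, the laminin γ3 chain Lamc3 by 0.28 ± 0.070, and netrin 4 (Ntn4) by 0.20 ± 0.049 (SE, adjusted p = 6.9e-06, 0.00692 and 0.00465). Nidogen 2 (Nid2) was lower by -0.22 ± 0.059 (adjusted p = 0.0124 by limma), whereas the difference of Nid1 was 0.017 ± 0.035. The collagen IV α3 chain Col4a3, of the kidney type trimer, was lower by -0.63 ± 0.196 (adjusted p = 0.0364 by limma). Leaving out the animals of 1 number ended the call of Col4a3 for each number (adjusted p from 0.067 to 0.158), and ended those of Lamc3, Nid2 and Ntn4 for some numbers (adjusted p from 0.0715 to 0.0923), whereas Npnt stayed called.

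In rhythm, of the 28 genes, 14 were called rhythmic under DRF and 13 under NRF, beside 35.2% and 43.9% of all genes. Of the 8 called in both, 5 had peaks 8 h or more apart and 1 had peaks within 4 h. That 1 was Pxdn (1.04 h and 3.27 h), the peroxidase that crosslinks collagen IV. Among all genes called in both, these shares were 50.8% and 24.4%. The same shares, and 6.89% for the daily mean, stand beside the lists that follow. Of the 5 with peaks 8 h or more apart, Nid2 peaked at 11.9 ± 0.458 h and 23.0 ± 0.594 h and Col15a1 at 7.20 ± 0.372 h and 22.2 ± 0.684 h. Npnt peaked at 16.3 ± 0.406 h and 3.42 ± 0.826 h and Ntn4 at 18.8 ± 0.477 h and 4.66 ± 0.764 h (SE). Col18a1, the precursor of endostatin, also belonged to these 5, with peaks at 18.8 h and 6.17 h, but its recovered values were too high to be judged whole.

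Among 26 genes of collagen processing, 3 were called in daily mean. P4hb, the β subunit of prolyl hydroxylase, was higher under DRF by 0.19 ± 0.039, and Sec23a, a coat protein of the vesicles that export procollagen, by 0.15 ± 0.029 (adjusted p = 0.00048 and 0.00021 by limma). Loxl4, a lysyl oxidase that crosslinks collagen, was lower by -0.90 ± 0.082 in log2(scaled count + 1) (adjusted p = 1.54e-11 by limma). Its daily means from the cosine fit to scaled counts, a different measure, were 3.96 under DRF and 11.8 under NRF. Sec23a had an adjusted p of 0.0674 with deposited values. P4hb was rebuilt under a wider tolerance of 0.2. Of the 9 genes called rhythmic in both regimens, 5 had peaks 8 h or more apart, and 2 within 4 h: Lox (23.1 h and 1.89 h) and Loxl1 (2.38 h and 5.26 h).

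The 22 fibrillar and other matrix genes had 2 calls, both lower under DRF by limma: fibronectin (Fn1) by -0.18 ± 0.037 (adjusted p = 0.00082) and the collagen VI α3 chain Col6a3 by -0.16 ± 0.050 (adjusted p = 0.0402). Their adjusted p-values were 0.587 and 0.207 with deposited values. Without the animals of 1 number Col6a3 had adjusted p-values up to 0.187. Recovered values of Fn1 were too high to be judged whole. Of the 3 genes called rhythmic in both regimens, elastin (Eln, 2.24 ± 1.03 h and 1.57 ± 0.366 h) and Col5a1 (5.62 ± 0.832 h and 3.94 ± 0.587 h) had peaks near those of the collagen IV chains, and tenascin C (Tnc) peaked at 9.84 ± 0.840 h and 23.9 ± 1.08 h (SE).

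Of 27 matrix receptor genes, 0 were called in daily mean by limma, and of the 15 called rhythmic in both regimens 4 had peaks within 4 h and 9 had peaks 8 h or more apart. Integrin α5 (Itga5, a fibronectin receptor chain) peaked at 9.47 h and 21.0 h, integrin α6 (Itga6, a laminin receptor chain) at 8.42 h and 21.3 h and syndecan 1 (Sdc1) at 9.69 h and 21.0 h. Metalloproteinases and their inhibitors, the family of Timp3, had 0 calls in daily mean among 19 measured genes. Of the 8 called rhythmic in both regimens 5 had peaks within 4 h, among them Mmp2 (3.97 h and 6.57 h), which cleaves collagen IV. Timp2 (51.9 scaled counts on average) and Timp1 (0.069) had no called rhythm in either regimen.

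Of 15 measured genes of the CCBE1 and VEGF-C pathway, 1 was called in daily mean, the VEGF-C coreceptor Nrp2, higher under DRF by 0.17 ± 0.055 (adjusted p = 0.0487 by limma). That call was lost in 8 alternatives, with an adjusted p of up to 0.180. Of the 8 genes called rhythmic in both regimens 0 had peaks within 4 h. Vegfd peaked at 12.8 ± 1.22 h and 1.05 ± 1.45 h, Vegfa at 4.8 ± 0.506 h and 14.8 ± 1.25 h, Lyve1 at 21.4 ± 0.828 h and 16.6 ± 1.13 h and Nrp2 at 23.3 ± 1.56 h and 16.5 ± 0.507 h (SE). Adamts3, the protease that acts with CCBE1, was called rhythmic under NRF with a peak at 13.1 ± 0.866 h, near that of Ccbe1, and was not called under DRF, where its fitted peak was at 14.1 ± 2.15 h. Of 28 measured genes of the TGF-β pathway, which drives collagen synthesis in stellate cells, 0 were called in daily mean. Of the 8 called rhythmic in both, 2 had peaks within 4 h, among them Tgfb1 (4.05 h and 7.16 h), and 5 had peaks 8 h or more apart, among them Skil (11 h and 20.8 h).

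**Figure D5:**
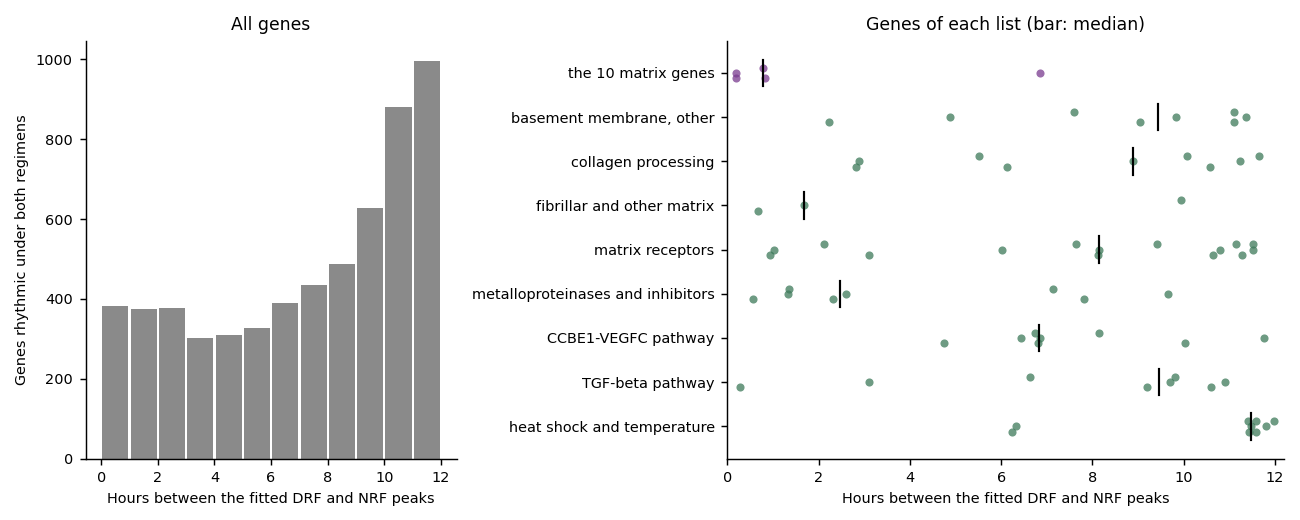
Hours between the fitted DRF and NRF peaks for genes called rhythmic in both regimens, as a histogram of all 5889 genes in bins of 1 h (left) and as points for the genes of each list (right; bars, medians). The most filled bin is 11 to 12 h, 4 of the 5 matrix genes lie below 1 h, and the heat shock genes have a median of 11.5 h.

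The genes nearest in pattern were sought over the 14 group means among 13754 genes, as a description without a test. For Col4a2 they were Evl (r = 0.933), Adgrg3 (0.929) and A830035A12Rik (0.922), and Col4a1 ranked 14 with 0.897. Timp3 and Ccbe1 were near to each other (r = 0.913): Timp3 was the gene nearest to Ccbe1, and Ccbe1 ranked 2 for Timp3, after Ncoa3 (0.925). Prex2 was among the nearest of both, with 0.871 for Timp3 and 0.908 for Ccbe1. For Serpinh1 the nearest were Lrrc59 (0.926), Tuba8 (0.926) and Dexi (0.925). The collagen IV chains and Timp3 ran opposite to each other, with r = -0.853 for Col4a1 and -0.686 for Col4a2.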

How the data were processed

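Liver RNA depleted of ribosomal RNA was sequenced as strand-specific paired reads in 56 libraries, 4 mice per regimen and time. The labels' molecule field says polyA RNA, and the protocol text was followed. The submitters' processing notes name CASAVA 1.8, featureCounts 1.5.0-p3 and the builds mm10 and GRCm38.p6. The aligner, and whether counting used strand, are not given in the sources used here, so reads of Timp3 and Syn3, or of Col4a1 and Col4a2 in their shared bases, cannot be told apart by strand.

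The authors deposited gene values named TPM, which are treated here as a score because they are not linear in reads. A deposited value times the exon length (GENCODE vM21) followed a·ln(1 + f·k) with whole counts k. For held-out genes, values above 100 and up to 1000 counts were not used in the fit. Of these, 96.3% were whole to within 0.05, against 10.0% by chance. The lowest values of the held-out genes did enter the fit. Scaled counts are f·k. Of 25415 genes, 25131 were rebuilt and tested. Recovered counts summed to 324 M to 731 M per library, more than reads of libraries of this kind, so they are not called reads, and depth in reads was not taken from the files. Precision rests on the spread between mice. The transcript and circRNA tables were not used.

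Tests used limma 3.58.1 (R 4.3.3) with a mean-variance trend on log2(scaled count + 1), which understates changes of low genes. Each regimen had an intercept and a 24-h cosine and sine (with 12-h terms added for that test), or 14 group means. All 56 libraries shared the spread, and p-values were Benjamini-Hochberg adjusted over all genes. Script steps were tested on simulated data. Fitted peaks, and daily means given in scaled counts, are from cosinors on scaled counts. Deviations between livers were tested with 100000 permutations within groups. The members and lists were chosen with earlier results of these data known. From each list, up to 3 genes with the largest called difference in daily mean and up to 3 with the largest relative amplitude among those rhythmic in both regimens were named, plus genes behind counts of 5 or fewer; Timp1, Timp2 and Adamts3 were named as relatives of members. Of the listed symbols, 8 had no row, and results for some genes are not reported here. Alternatives were the deposited values, a pseudocount of 0.1, a mean of at least 1 scaled count, median-of-ratios scaling, a correction for exon length, a replicate block, leaving out each replicate number, leaving out ZT24 and, for rhythms, rank tests. The replicate numbers did not pair the mice: in 28 DRF and NRF pairs of 1 number, deviations correlated between -0.145 and 0.084, 0 of them over 0.1.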

Additional observations from a re-analysis of the deposited data

Results flagged for a closer look

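In 140 groups of 4 livers, 4 held a liver far from the other 3 by Dixon's criterion, where chance gives about 1 in 20 groups. Under DRF, Col4a1 had a liver at 120.3 scaled counts at ZT8 with the others at 162 to 170.3, and Col4a2 had a liver at 130.1 at ZT0 with the others at 154 to 158. Under DRF, Lamb1 had a liver at 17.1 at ZT16 with the others at 15.9 to 16, and Hspg2 had a liver at 91.4 at ZT4 with the others at 78.5 to 79.8.

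The difference in 24-h rhythm between DRF and NRF was called for 33 of the genes named here outside the 10 members, by limma over all genes. Over all genes it was called for 39.0%. Part of the named genes were picked for a large rhythm in both regimens, so these calls are a description of them. Among basement membrane genes the adjusted p was 1.22e-05 for Col4a3, 7.22e-11 for Npnt, 0.00656 for Lamc3, 3.94e-15 for Nid2, 2.82e-08 for Ntn4, 6.47e-13 for Col15a1, 1.27e-10 for Col18a1 and 0.0127 for Pxdn. For collagen processing it was 1.58e-28 for Loxl4, 3.7e-06 for P4hb, 9.03e-11 for Sec23a, 0.00166 for Lox and 0.00177 for Loxl1. Lox and Loxl1 were called although their peaks lay 2.82 h and 2.88 h apart. Other matrix genes gave 0.00332 for Col6a3, 0.0015 for Eln, 1.34e-05 for Tnc and 0.0209 for Col5a1. Receptor genes gave 7.9e-17 for Itga5, 2.9e-16 for Itga6 and 5.85e-11 for Sdc1, and Mmp19 gave 2.43e-08. In the CCBE1 and VEGF-C pathway the adjusted p was 0.000116 for Nrp2, 0.00328 for Lyve1, 0.00068 for Vegfd and 1.3e-07 for Vegfa, and in the TGF-β pathway it was 1.84e-09 for Skil and 0.0286 for Tgfb1. Heat shock and temperature genes gave 4.39e-07 for Hspd1, 5.99e-07 for Hsp90aa1, 2.59e-06 for Cirbp and 5.77e-09 for Dnaja1. The marker genes Ngfr and Gas6 gave 1.09e-07 and 9.43e-12.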

How the results depend on the processing

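With the values as deposited, genes called in the 12-h test went from 1196 to 478 under DRF and from 513 to 188 under NRF, and those called between ZT24 and ZT0 from 787 to 1897 and from 2001 to 6064. After the exon length correction the latter were 6135 and 8266. Leaving out 1 replicate number at a time gave 758 (without replicate 1) to 1376 genes for the daily mean (1731 with all), 308 to 804 and 145 to 230 for the 12-h tests, 119 to 598 and 161 to 2642 for ZT24 against ZT0, 6609 to 7044 and 8895 to 9455 for the rhythms under DRF and NRF, and 8000 to 8350 for their difference. The regimens then differed in 2885 to 3087 genes at ZT0, 3265 to 4762 at ZT4, 1978 to 2567 at ZT8, 2468 to 3221 at ZT12, 2244 to 3072 at ZT16, 2270 to 2660 at ZT20 and 2237 to 2905 at ZT24. Fewer samples were fitted when a number was left out, and other causes were not tested. With the replicate block 1742 genes were called in daily mean, and among the named genes the block ended only the call of Nrp2 (adjusted p = 0.0577). Under the rank tests alone, 7728 and 7957 genes were rhythmic under DRF and NRF.

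Some differences in daily mean that were not called changed sign. They were Col4a2 (0.0039) and Ccbe1 (0.0062) with deposited values, Timp3 (-0.0011) with median-of-ratios scaling and Lamb1 (-0.0013) without ZT24. Leaving out 1 replicate number gave -0.030 to 0.071 for Sparc, -0.028 to 0.037 for Timp3 (-0.011 without replicate 3), -0.0047 to 0.042 for Nid1 and -0.047 to 0.017 for Ccbe1. Correlations with Col4a1 changed sign without 1 replicate number, with ranges of -0.013 to 0.354 for Hspg2, -0.201 to 0.213 for Timp3, -0.209 to 0.167 for Serpinh1 and -0.226 to 0.023 for Ccbe1. They also did so for Serpinh1 (-0.037) without the ribosomal part and for Ccbe1 (0.219) with deposited values. The alternatives for peaks, correlations and single times were chosen after seeing the data. The recovered counts are not reads, so no counting limit for low genes is given.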
